A study of Homo sapiens with 6 samples.

Results

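The 35 genes described here encode the cytosolic chaperone machinery, its helper proteins and the heat shock transcription factors. They were chosen by name from the Hsp70, Hsp110, J protein, BAG, Hsp90, small heat shock protein, chaperonin and heat shock factor families. Earlier results of these data were known when they were chosen. Of the 35 genes, 32 had a probe with a single gene symbol, out of 18255 such genes on the array. Each was represented by its brightest probe, by the mean of the 6 arrays. HSPD1 and ST13 had no probe under their symbols, and the only probe of HSPA6 also carried another symbol, so these 3 genes were not analysed here. RNA came from THP-1, an established human monocytic leukaemia line kept in medium with 0.5% serum, and was measured on single-colour Cy5 arrays, 2 per group. LC53 plus LPS cells were given 5 µM of LC53 for 15 min and then 50 ng/ml lipopolysaccharide (LPS), the endotoxin of Gram-negative bacteria that TLR4 senses, for 8 h. LPS cells were given the same LPS for 8 h without LC53, and resting cells were given neither agent. No group with LC53 alone was listed. The series title names theissenolactone C, and the labels do not say how it relates to LC53. The design text speaks of 3 RNA samples and the labels name no separate cultures behind a group's 2 arrays, so the p-values measure only the spread between these arrays, which may be technical.

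Hsp70 proteins bind unfolded stretches of protein and release them in a cycle driven by ATP. J proteins deliver clients and start ATP hydrolysis, while Hsp110 and BAG proteins exchange the nucleotide. Hsp90 with its cochaperones finishes the folding of kinases and hormone receptors, small heat shock proteins hold unfolded proteins, and CHIP, the product of STUB1, marks clients for degradation. The factor HSF1 raises many of these genes when unfolded or chemically damaged protein accumulates, by binding heat shock elements, which are inverted repeats of the unit nGAAn.

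Median probe intensity was 110.5 and 112.7 for LC53 plus LPS, 84.4 and 124.0 for LPS, and 99.2 and 110.9 for resting cells. The 2 LPS arrays were thus the pair that differed most in scale, and LPS replicate 1 read lower than LPS replicate 2 for 29 of the 32 genes. Of 11 measured monocytic markers, all except CD4 had a group mean above the mean of that group's 2 array medians, in each group. Their summed intensity was 55657 to 66892 on the LC53 plus LPS arrays, 48213 to 63881 on the LPS arrays and 64514 to 66026 on the resting arrays. Of these markers CSF1R passed in LC53 plus LPS against LPS, at 891 and 879 in LC53 plus LPS cells, 2078 and 2651 in LPS cells, and 1851 and 1944 in resting cells. In LPS against resting SPI1 was called higher (log2 difference 1.46) and MPO lower (-1.32). No marker of this list passed in LC53 plus LPS against resting. The lists of 6 other cell types summed to at most 882 on any array. Of their genes only PDGFRB, a fibroblast marker, passed, lower in LC53 plus LPS against LPS and higher in LPS against resting. It read 1.81 and 1.12 in LC53 plus LPS cells, 122 and 128 in LPS cells, and 1.98 and 4.03 in resting cells. The part of these markers in the results was not tested.

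The first comparison, LC53 plus LPS against LPS, addressed the effect of LC53 pretreatment on LPS-stimulated cells. The J protein genes DNAJA4 and DNAJB4 and the BAG gene BAG3 rose 2.76-fold, 2.52-fold and 2.23-fold, and none of the 32 was called lower. These 3 of 32 genes (9.38%) compare with 0.876% of all genes called higher and 2.24% called lower, by limma with a Benjamini-Hochberg adjusted p under 0.05. The 32 genes were chosen with earlier results of these data known, so the shares and medians describe them and are no independent test. At an unadjusted p under 0.05, 15 genes were higher and 0 lower, against 11.5% higher and 8.49% lower over all genes. Both LC53 plus LPS arrays read above both LPS arrays for 21 genes (65.6%, against 31.1% of all genes) and below them for HSPA4 and CRYAB (6.25%, against 17.1% of all genes). The difference was above 0 for 27 genes (84.4%, against 64.2% of all genes). These include HSP90AB1, which was saturated on 3 arrays, and HSPB8, which read near the floor. The median log2 difference of the 32 genes was 0.44, against 0.16 over all genes and 0.10 over the 8015 genes within the 10th to 90th percentile of their mean log2 intensity. The median SE was 0.21 for the 32 genes, 0.24 over all genes and 0.21 over those 8015 genes. The shares above were set against all genes only, not against genes of like intensity.

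**Figure D1:**
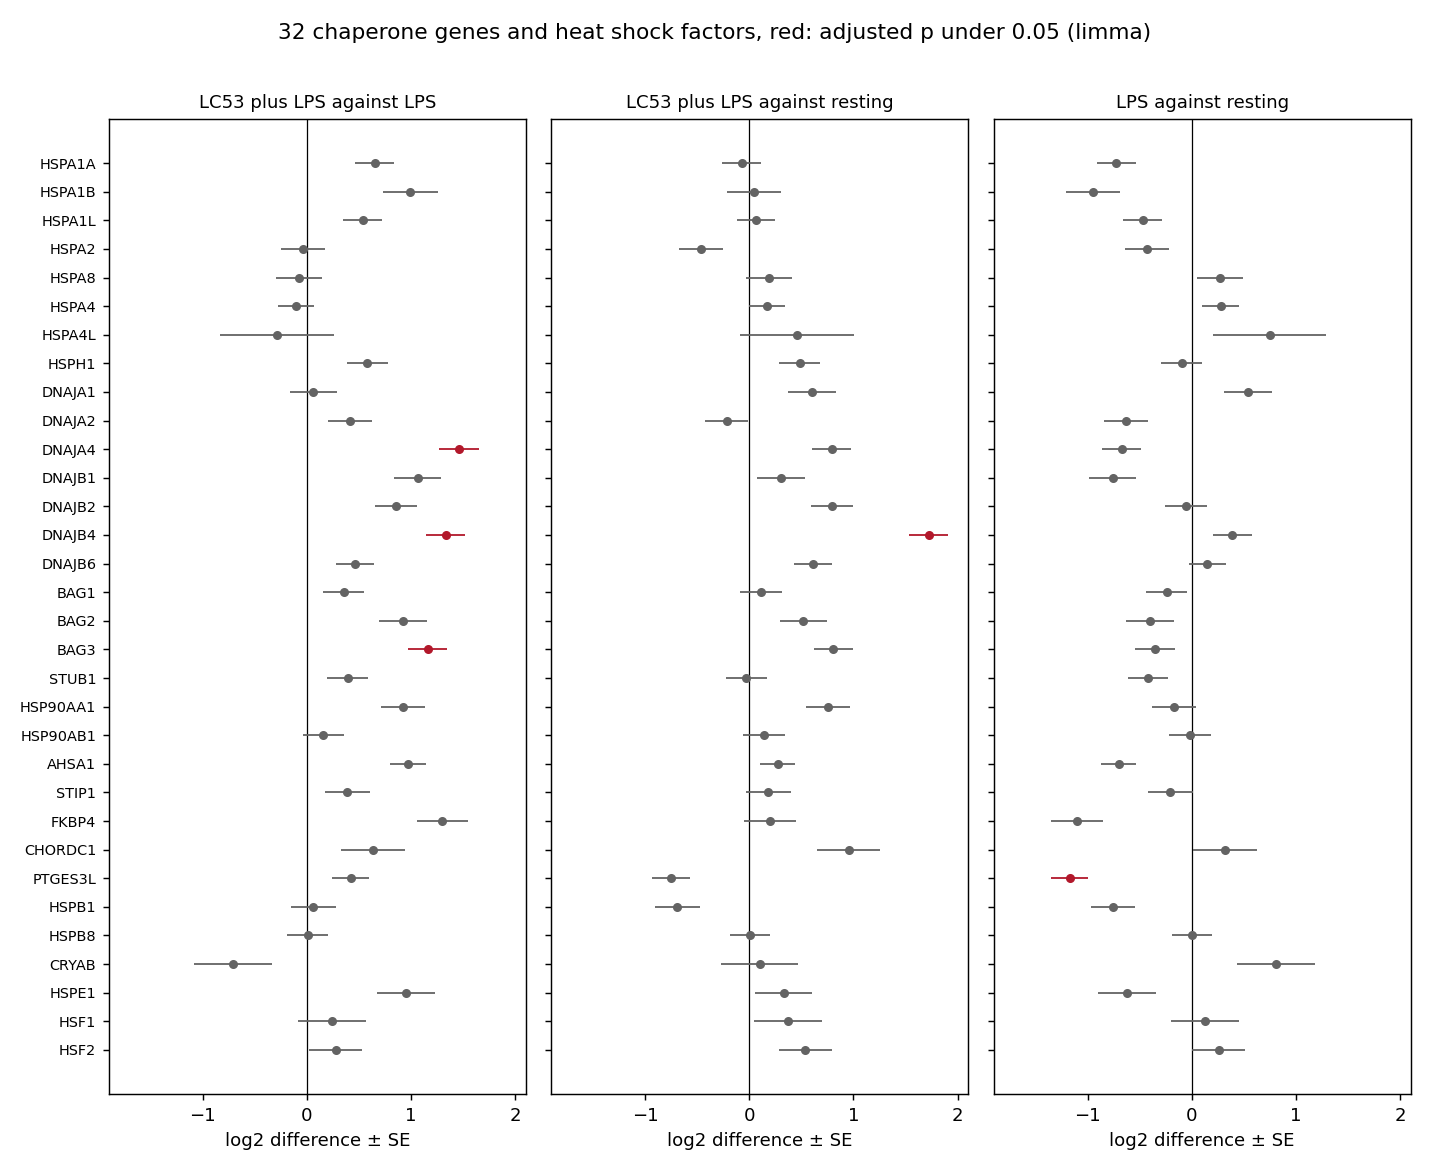
Log2 differences ± SE (limma, n = 2 arrays per group) of the 32 measured genes in the 3 comparisons, with genes down the page in order of family and red points at an adjusted p under 0.05. In LC53 plus LPS against LPS 27 points lie above 0, with DNAJA4 at 1.46, DNAJB4 at 1.33 and BAG3 at 1.16 in red.

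The scale between arrays bears on this comparison, since the median difference over all genes was 0.16 as deposited, 0.03 after median centring and 0.02 after cyclic loess. The median of the 32 genes minus that of all genes was 0.28 as deposited, 0.33 after quantile normalization and 0.32 after cyclic loess, and 24, 23 and 23 of the 32 genes lay above the all-gene median. Median centring moves all genes of an array alike, so it leaves this gap and this count as they were by construction. The number of the 32 called higher was 3 as deposited, 11 after quantile normalization, 5 after median centring and 10 after cyclic loess, and DNAJA4, DNAJB4 and BAG3 were among them each time. Calls rose over the whole array too, with 218 of 31741 probes called higher as deposited and 1650, 668 and 1196 in the same order of scalings. Without LPS replicate 1 the median was 0.32 for the 32 genes and -0.07 for all genes, and without LPS replicate 2 it was 0.60 and 0.36. In bulk RNA a change in the share of cells and a change in RNA per cell cannot be told apart.

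DNAJA4, a J protein of Hsp70, had intensities of 5756 and 5244 in LC53 plus LPS cells, 1971 and 2016 in LPS cells, and 3476 and 2907 in resting cells. The 3 groups did not overlap, with LC53 plus LPS cells highest and LPS cells lowest. The log2 difference between LC53 plus LPS and LPS cells was 1.46 ± 0.19 (SE; adjusted p = 0.0227). DNAJB4, another J protein of Hsp70, read 614 and 582 in LC53 plus LPS cells, 221 and 256 in LPS cells, and 172 and 192 in resting cells. Here resting cells were lowest, and LC53 plus LPS cells lay above both other groups. Its log2 difference was 1.33 ± 0.19 (adjusted p = 0.0287). BAG3, which links Hsp70 to small heat shock proteins and to selective autophagy, read 2671 and 2899 in LC53 plus LPS cells, 1218 and 1277 in LPS cells, and 1457 and 1738 in resting cells. It showed the order of DNAJA4, at a log2 difference of 1.16 ± 0.19 (adjusted p = 0.0431). With 1 array left out these 3 calls held only without LPS replicate 2, and adjusted p without another array ranged up to 0.165, 0.196 and 0.294, while the log2 differences were at least 1.40, 1.23 and 1.10. In a fit of the 4 arrays compared none of the 3 passed (adjusted p = 0.0831, 0.114 and 0.15). The resting arrays do not enter these differences, and leaving 1 of them out gave the same result as this fit.

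The promoters of these genes and of family members with heat shock elements were read from RefSeq, GRCh38.p14, from 250 bases before to 50 bases after an annotated start. Of the 35 genes 29 matched. Elements of 3 repeats, GAANNTTC followed by NNGAA or TTCNNGAA followed by NNTTC, were found on either strand in 5 of the 29 promoters (17.2%), against 0.487% of all 27305 promoters of that length. Elements of 2 repeats, GAANNTTC or TTCNNGAA, which lie within those of 3, were found in 11 (37.9%, against 13.7%). The following windows show elements of CHORDC1, HSPA8, HSPA6, DNAJB6 and DNAJA1 in capitals, then the nearly identical HSPA1A and HSPA1B, and last the 120 bases before the start of the 3 genes that passed, which hold no match.
CHORDC1, chr11:90223060-90223139, minus strand: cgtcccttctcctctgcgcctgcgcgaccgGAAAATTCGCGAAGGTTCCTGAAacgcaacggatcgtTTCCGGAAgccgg
HSPA8, chr11:123062162-123062221, minus strand: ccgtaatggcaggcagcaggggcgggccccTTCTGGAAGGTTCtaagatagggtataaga
HSPA6, chr1:161524436-161524495, plus strand: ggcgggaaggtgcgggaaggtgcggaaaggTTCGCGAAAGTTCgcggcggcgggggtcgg
DNAJB6, chr7:157336843-157336902, plus strand: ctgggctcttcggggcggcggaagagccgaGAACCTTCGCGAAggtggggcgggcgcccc
DNAJA1, chr9:33025266-33025294, plus strand: gcgccgggcgGAACTTTCCAGAAcgctcg
HSPA1A, chr6:31815407-31815466, plus strand: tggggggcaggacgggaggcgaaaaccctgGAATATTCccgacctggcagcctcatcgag
HSPA1B, chr6:31827603-31827662, plus strand: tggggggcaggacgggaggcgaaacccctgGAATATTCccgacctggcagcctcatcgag
DNAJA4, chr15:78264025-78264144, plus strand: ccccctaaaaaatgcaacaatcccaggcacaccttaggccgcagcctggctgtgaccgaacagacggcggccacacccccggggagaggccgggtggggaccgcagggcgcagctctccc
DNAJB4, chr1:77979055-77979174, plus strand: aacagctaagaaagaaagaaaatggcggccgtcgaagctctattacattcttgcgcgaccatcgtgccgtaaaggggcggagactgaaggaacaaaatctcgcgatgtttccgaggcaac
BAG3, chr10:119651260-119651379, plus strand: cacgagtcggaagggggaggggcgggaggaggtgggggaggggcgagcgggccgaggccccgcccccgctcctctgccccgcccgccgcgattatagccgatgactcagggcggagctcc

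In CHORDC1 5 units followed each other without a gap, so 3 overlapping elements of 3 repeats began 60, 55 and 50 bases before the start. A further pair of repeats, in capitals, lay 23 bases before it. HSPA8 held elements 230 and 55 bases before the start, of which the nearer is shown. The DNAJA1 element began at base 4 after the start. HSPA1A and HSPA1B carried the same 2 repeats, 106 and 105 bases before their starts, in windows that matched at 59 of 60 bases. The 2 repeats counted for HSPA1L are that same site of HSPA1A, since the starts of both genes lie close together. The whole 300-base promoters of DNAJA4, DNAJB4 and BAG3 held neither form. Those of DNAJB1, HSPH1, HSP90AA1, HSPE1 and others of these genes held neither form as well. A match describes these letters only, elements with other letters were not counted, and windows at other annotated starts were not searched.

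Among the other J protein genes, DNAJB1, the Hsp40 that stimulates Hsp70, read 5390.4 and 4067 in LC53 plus LPS cells, 2016 and 2488 in LPS cells, and 3755 and 3828 in resting cells. LPS cells were lowest and the groups did not overlap, but the log2 difference between LC53 plus LPS and LPS cells of 1.06 ± 0.23 did not pass (adjusted p = 0.0817). DNAJB2, a J protein with ubiquitin-interacting motifs, read 466 and 419.6 in LC53 plus LPS cells, 222 and 270.2 in LPS cells, and 272 and 239 in resting cells, a log2 difference of 0.85 ± 0.20 (adjusted p = 0.104). LC53 plus LPS cells stood above both other groups, which overlapped. DNAJB6, which holds back protein aggregation, differed by 0.46 and DNAJA2 by 0.41, with adjusted p of 0.26 and 0.351. DNAJA1, whose element is shown above, read 8037 and 6805 in LC53 plus LPS cells and 6133 and 8177 in LPS cells, which overlapped, against 4529.8 and 5249 in resting cells. Its log2 difference of 0.06 between LC53 plus LPS and LPS cells was within its SE of 0.23, and it was -0.02 after quantile normalization and -0.08 after cyclic loess. Across the 7 J protein genes the median log2 difference was 0.85, and 2 passed.

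**Figure D2:**
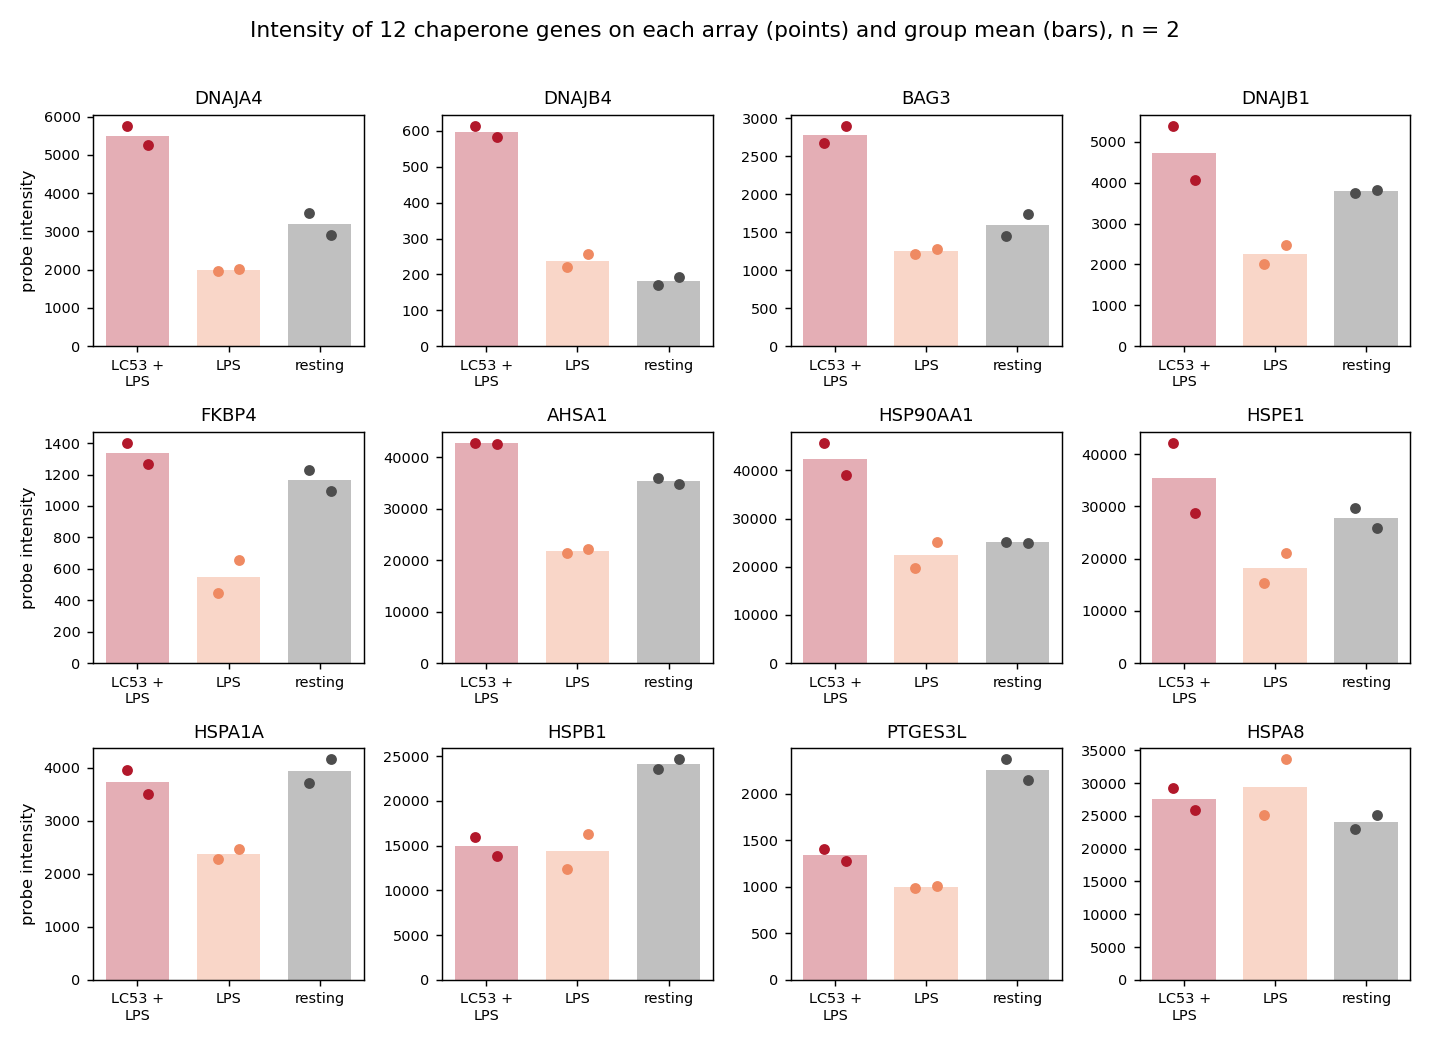
Probe intensity (linear, as deposited) of 12 of the genes on each array, with points for the 2 arrays of a group and bars for the group mean; each panel has its own axis from 0. DNAJA4, DNAJB1, AHSA1 and FKBP4 are lowest in LPS cells, and HSPB1 and PTGES3L are highest in resting cells.

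Of the Hsp70 genes, HSPA1A and HSPA1B, the stress-inducible pair, were lowest in LPS cells. HSPA1A read 3959 and 3513 in LC53 plus LPS cells, 2286 and 2467 in LPS cells, and 3706 and 4160.1 in resting cells. HSPA1B read 1647 and 1207 in LC53 plus LPS cells, 594 and 844 in LPS cells, and 1387 and 1346 in resting cells. In both, LC53 plus LPS cells overlapped resting cells and lay above LPS cells. The log2 differences between LC53 plus LPS and LPS cells were 0.65 ± 0.19 and 0.99 ± 0.26 and did not pass (adjusted p = 0.155 and 0.13). Their transcripts are nearly identical, so each probe may read both. HSPA1L, a close relative, may share that limit. HSPA1L read 621 and 595 in LC53 plus LPS cells, 389 and 453 in LPS cells, and 598 and 567 in resting cells. HSPA8, the constitutive Hsc70 with 2 elements in its promoter, read 29235 and 25836 in LC53 plus LPS cells, 25081 and 33637 in LPS cells, and 22989.9 and 25177 in resting cells. Its difference between LC53 plus LPS and LPS cells was -0.08, with a 95% interval of -0.62 to 0.46, and a second probe gave 0.40 (adjusted p = 0.44). HSPA2, best known from testis, differed by -0.04 ± 0.21.

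None of the 3 Hsp110 genes passed. HSPH1, an exchange factor of Hsp70, read 18380.0 and 18537 in LC53 plus LPS cells, 11272 and 13535 in LPS cells, and 12226 and 14253 in resting cells. LC53 plus LPS cells lay above both other groups, at 0.58 ± 0.20 against LPS cells (adjusted p = 0.212). HSPA4, its relative, read 25809.8 and 27705 in LC53 plus LPS cells and 28772 and 28738 in LPS cells. Its log2 difference was -0.10 ± 0.17. HSPA4L stayed at 22.1 or less on every array. Of the other cochaperones, the exchange factor genes BAG2 and BAG1 differed by 0.92 ± 0.23 and 0.35 ± 0.20, and the ubiquitin ligase gene STUB1 by 0.39 ± 0.19, none passing (adjusted p = 0.113, 0.389 and 0.344). BAG2 read 1908 and 2118 in LC53 plus LPS cells, 1001 and 1124 in LPS cells, and 1195 and 1645 in resting cells, so that LC53 plus LPS cells were above both other groups.

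No gene of the Hsp90 group passed in this comparison, but 6 of the 7 had both LC53 plus LPS arrays above both LPS arrays, against 31.1% of all genes. The median log2 difference of the 7 was 0.63, against 0.16 over all genes, and includes HSP90AB1, which was saturated on 3 arrays. HSP90AA1, the inducible Hsp90, read 45775 and 38969 in LC53 plus LPS cells, 19741 and 25138 in LPS cells, and 25181 and 24906 in resting cells. LPS and resting cells overlapped, and LC53 plus LPS cells were higher than both, by 0.92 ± 0.21 against LPS cells (adjusted p = 0.0955). A second HSP90AA1 probe differed by 1.03 (adjusted p = 0.11). AHSA1, which activates the Hsp90 ATPase, read 42805 and 42608 in LC53 plus LPS cells, 21439 and 22086 in LPS cells, and 35944 and 34863 in resting cells. The spread within each group was small against the gaps between them, and the difference of 0.97 ± 0.17 between LC53 plus LPS and LPS cells did not pass (adjusted p = 0.0522). A dimmer AHSA1 probe differed by 0.67 (adjusted p = 0.39).

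FKBP4, encoding the immunophilin FKBP52 of Hsp90-receptor complexes, read 1403 and 1265 in LC53 plus LPS cells, 445 and 657 in LPS cells, and 1229 and 1096 in resting cells. The log2 difference between LC53 plus LPS and LPS cells was 1.30 ± 0.25 and did not pass (adjusted p = 0.0619), and the other FKBP4 probe gave 0.91. CHORDC1, a zinc protein that binds Hsp90 and the gene with 5 adjoining repeat units, read 849 and 657 in LC53 plus LPS cells, 374 and 619 in LPS cells, and 351 and 425 in resting cells. Its LC53 plus LPS arrays were above the others, at 0.63 ± 0.31 against LPS cells (adjusted p = 0.333). STIP1, the adaptor Hop between Hsp70 and Hsp90, differed by 0.39 ± 0.22 (adjusted p = 0.394). HSP90AB1, the constitutive Hsp90, read 59354 and 73102 in LC53 plus LPS cells, 55361 and 62996 in LPS cells, and 59131 and 60543 in resting cells. It was saturated on both LC53 plus LPS arrays and on LPS replicate 2, so its change was not measured.

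HSPE1, the mitochondrial Hsp10 that works with Hsp60 and so lies outside the cytosol, was read by 3 probes. The brightest had 42185 and 28704 in LC53 plus LPS cells, 15405 and 21054 in LPS cells, and 29623 and 25919 in resting cells, a log2 difference of 0.95 ± 0.28 between LC53 plus LPS and LPS cells (adjusted p = 0.16). The second had 27586 and 24768 in LC53 plus LPS cells, 12288 and 12961 in LPS cells, and 14514 and 17182 in resting cells, a difference of 1.05 (adjusted p = 0.0567). In the second probe LC53 plus LPS cells lay above resting cells, and in the brightest they overlapped them. Over the 12 genes with more than 1 probe, 12 of the 14 other probes had the sign of the chosen probe in this comparison, and 0 passed (limma). Of these 14 probes 13 differed by more than 0, and 64.2% of all genes did so, so a shared sign says little by itself.

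None of the 3 small heat shock protein genes passed, and their median log2 difference was 0.01. HSPB1, encoding Hsp27, read 15989 and 13872 in LC53 plus LPS cells and 12426 and 16352 in LPS cells, which overlapped, against 23520.4 and 24644 in resting cells. Its difference between LC53 plus LPS and LPS cells was 0.06 ± 0.22, and it was -0.11 after quantile normalization and -0.12 after cyclic loess. CRYAB, encoding alphaB-crystallin, read 54.4 and 44.6 in LC53 plus LPS cells, 55.2 and 117 in LPS cells, and 46.6 and 45.4 in resting cells, so the LPS mean rested on LPS replicate 2. HSPB8, the small heat shock protein that partners BAG3, read between 1.81 and 2.23 on every array, at the low end of the scale.

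The transcription factor genes gave no call. HSF1, the main heat shock factor, read 2493 and 1683 in LC53 plus LPS cells, 1333 and 2252 in LPS cells, and 1622 and 1551 in resting cells. The arrays of LC53 plus LPS and LPS cells overlapped, at a log2 difference of 0.24 with a 95% interval of -0.57 to 1.05 (adjusted p = 0.715). HSF2, a related factor, read 1575 and 1254 in LC53 plus LPS cells, 997 and 1351 in LPS cells, and 866 and 1085 in resting cells, with a difference of 0.28 and an interval of -0.35 to 0.90 (adjusted p = 0.584).

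**Figure D3:**
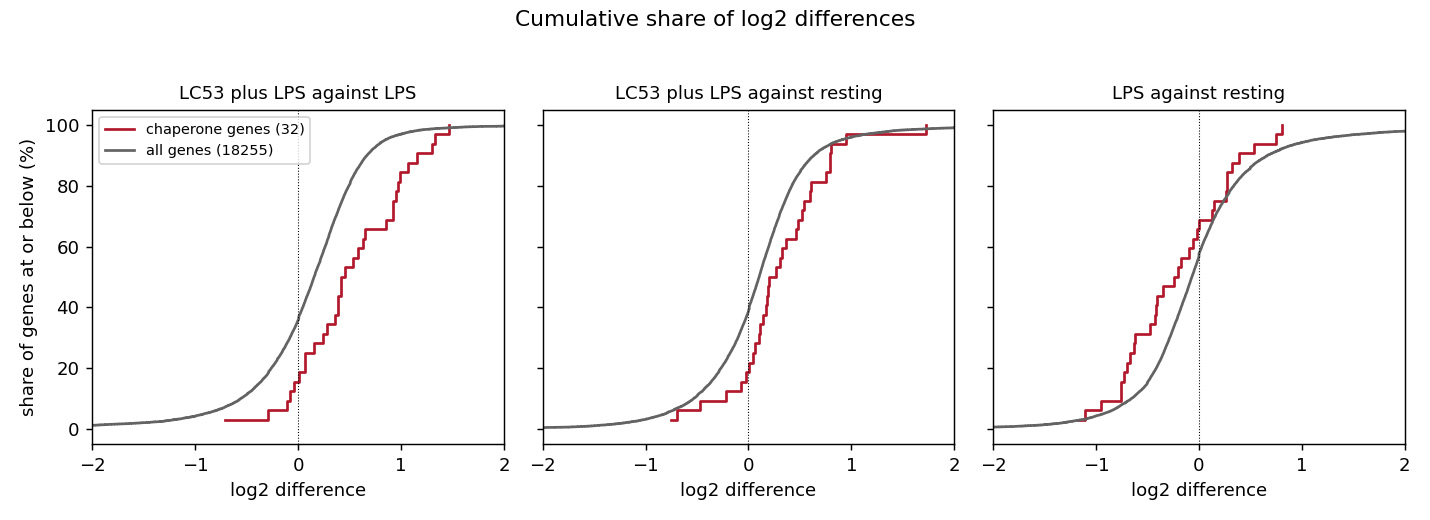
Cumulative share of genes (%) by log2 difference in the 3 comparisons, for the 32 chaperone genes and heat shock factors (red) and all 18255 genes (grey). The red curve lies right of the grey one over most of its length in LC53 plus LPS against LPS (medians 0.44 and 0.16) and left of it at most values below 0 in LPS against resting (medians -0.22 and -0.07).

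LC53 plus LPS against resting asked how cells given both agents differed from untreated ones, with the same LC53 plus LPS arrays. DNAJB4 rose 3.30-fold, the only gene of the 32 that passed (3.13%, against 2.03% of all genes called higher and 1.5% called lower), at a log2 difference of 1.72 ± 0.19 (limma, adjusted p = 0.0134). No gene was called lower. At an unadjusted p under 0.05 (limma), 8 were higher and 2 lower (9.31% and 8.46% of all genes). Among those 8, CHORDC1 differed by 0.95, BAG3 by 0.81, DNAJB2 and DNAJA4 by 0.79, HSP90AA1 by 0.75, DNAJB6 by 0.61 and DNAJA1 by 0.60, with adjusted p between 0.102 and 0.279. HSPB1 and PTGES3L, the 2 lower genes, differed by -0.69 ± 0.22 and -0.75 ± 0.18 (adjusted p = 0.191 and 0.105). HSPA1A, HSPA1B and FKBP4, which read lowest in LPS cells, differed from resting cells by -0.07, 0.05 and 0.20, with 95% intervals of -0.54 to 0.39, -0.60 to 0.69 and -0.41 to 0.81. Both LC53 plus LPS arrays were above both resting arrays for 17 genes (53.1%, against 37.5% of all genes) and below them for 4 (12.5%, against 22.3%), and 26 genes differed by more than 0 (81.2%, against 61.2%). The DNAJB4 call was lost without any 1 of the 4 arrays compared, where its log2 difference was 1.64 to 1.80. The LPS arrays do not enter this difference. Leaving 1 of them out gave the same result as a fit of the 4 arrays compared. The call held in that fit (limma, adjusted p = 0.0179).

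LPS against resting asked what the stimulus alone did, and it shares its LPS arrays with the comparison of LC53 plus LPS against LPS, so a low LPS reading enters both. PTGES3L, whose product resembles the Hsp90 cochaperone p23, fell to 993 and 1012 in LPS cells, against 2371 and 2151 in resting cells, a log2 difference of -1.17 ± 0.18 (limma, adjusted p = 0.0193). It read 1404 and 1279.9 in LC53 plus LPS cells, between the other groups and apart from both, and its locus overlaps an annotated readthrough gene, so its probe may read that transcript too. It was the only call among the 32 (3.13%, against 3.08% of all genes called lower and 4.45% called higher), a share near that of all genes. The call was lost in a fit of the 4 arrays compared (limma, adjusted p = 0.0616). The LC53 plus LPS arrays do not enter this difference, and leaving 1 of them out gave the same result as that fit. The call was also lost without resting replicate 1 or 2, at log2 differences of -1.10 and -1.24.

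No gene was called higher by LPS, and at an unadjusted p under 0.05 (limma) 0 were higher and 10 lower (10.5% and 11.4% of all genes). FKBP4 differed by -1.10 ± 0.25, HSPA1B by -0.95 ± 0.26, DNAJB1 by -0.76 ± 0.23, HSPB1 by -0.76 ± 0.22, HSPA1A by -0.73 ± 0.19 and AHSA1 by -0.70 ± 0.17, with adjusted p from 0.0614 to 0.129. Both LPS arrays lay below both resting arrays for 16 genes (50%, against 28.5% of all genes) and above them for 6 (18.8%, against 21.5%). The genes above were CRYAB, DNAJA1, DNAJB4, DNAJB6, HSPA4 and HSPA4L. The difference was above 0 for 11 genes (34.4%, against 43.4%). The median log2 difference of the 32 genes was -0.22, against -0.07 over all genes. The number called lower was 1 as deposited and 9 after quantile normalization, 4 after median centring and 8 after cyclic loess. Over all 31741 probes 793 were called lower as deposited, and 2604, 1505 and 2085 in the same order of scalings.

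Families around these genes were, like the genes themselves, listed with earlier results of these data known. They are described for LC53 plus LPS against LPS. Of 12 other measured Hsp90 proteins and cochaperones 0 were called higher and 1 lower, against 0.876% and 2.24% of all genes. Their median log2 difference was 0.01. The gene called lower was PPP5C, a protein phosphatase of Hsp90 complexes. It read 985 ± 44.9 in LC53 plus LPS cells, 2083 ± 0.266 in LPS cells and 2147 ± 14.3 in resting cells (SD, n = 2). Its log2 difference was -1.08 ± 0.17 (limma, adjusted p = 0.0396). FKBP5, the relative of FKBP4 and named after its values were seen, read 4229 ± 551 in LC53 plus LPS cells, 9787 ± 1711 in LPS cells and 3656 ± 65.2 in resting cells. It rose with LPS against resting cells by 1.41 ± 0.21 (adjusted p = 0.0192), and LC53 plus LPS differed from LPS by -1.21 ± 0.21 (adjusted p = 0.0544). FKBP4 differed by -1.10 and 1.30 in these comparisons, which share the LPS arrays.

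No gene passed among 14 other Hsp70 proteins and exchange factors, 22 other J proteins, 7 other small heat shock proteins, 14 subunits of the TRiC chaperonin and prefoldin, and 6 other heat shock factors and partners (limma). At an unadjusted p under 0.05, 1, 3, 0, 3 and 0 of these were higher and 0, 0, 1, 0 and 0 lower, in the same order. Over all genes 11.5% were higher and 8.49% lower by that rule. Their median log2 differences were 0.08, -0.02, 0.25, 0.29 and 0.30, against 0.16 over all genes. HSPB7, a small heat shock protein gene named after its values were seen, fell against resting cells, by 1.62 on the log2 scale in LC53 plus LPS cells (adjusted p = 0.0184) and by 1.31 in LPS cells (adjusted p = 0.019). All 14 TRiC and prefoldin genes, which fold actin and tubulin, differed by more than 0, between 0.04 and 0.72, and 7 had both LC53 plus LPS arrays above both LPS arrays, against 64.2% and 31.1% of all genes. Of 14 measured genes outside the chaperone families that heat or damaged protein is known to raise, 2 were called higher and 0 lower. Over all genes 0.876% were called higher and 2.24% lower. Their median log2 difference was 0.32 over all 14. UBB, a ubiquitin gene among them and counted in that median, was saturated on all 6 arrays, so its change was not measured. The genes called higher were HMOX1, encoding haem oxygenase 1, and SQSTM1, encoding the autophagy receptor p62. Their log2 differences were 3.01 ± 0.18 and 2.03 ± 0.21 (limma, adjusted p = 0.00314 and 0.013). HMOX1 read 7677 ± 49.5 in LC53 plus LPS cells, 953 ± 93.9 in LPS cells and 76.0 ± 3.74 in resting cells (SD, n = 2). HMOX1 and SQSTM1 are also targets of the oxidative stress factor NRF2. GADD45B, a stress-induced growth arrest gene named after its values were seen, differed by -0.80 ± 0.18 and did not pass (adjusted p = 0.0949). IER5, a partner of HSF1 named after its values were seen, read 9144 ± 1287 in LC53 plus LPS cells, 11246 ± 2139 in LPS cells and 3404 ± 59.8 in resting cells. Against resting cells IER5 was called higher both in LC53 plus LPS cells and in LPS cells.

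**Figure D4:**
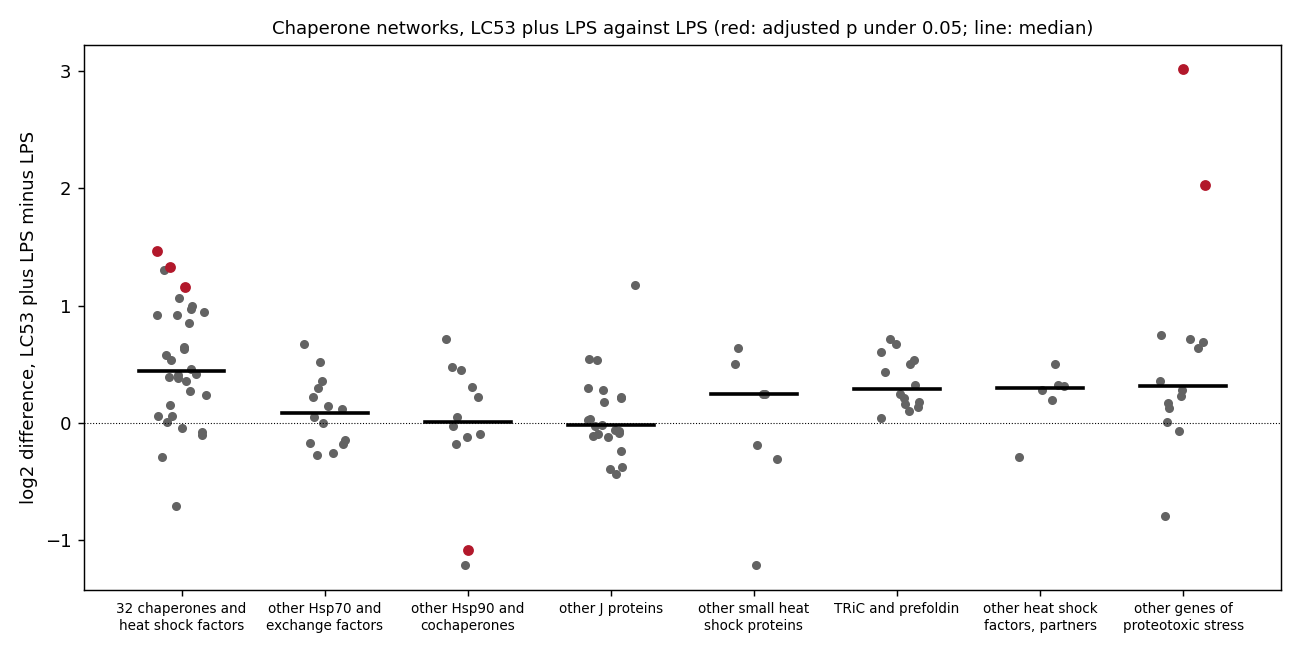
Log2 differences of LC53 plus LPS against LPS for the 32 genes and 7 lists around them, with 1 point per gene, a line at each median and red points at an adjusted p under 0.05. The 32 genes have a median of 0.44, the other J proteins of -0.02, and HMOX1 stands highest at 3.01.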

How the data were processed

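Expression was measured on 6 single-colour Cy5 arrays of THP-1 RNA, 2 each for LC53 plus LPS, LPS and resting cells. The authors deposited a table of intensity values of 31741 probes per array, linear and already scaled. On each array 100% of the values were whole numbers times a single factor, within 0.02, so no reshaping of the distribution between arrays was visible, while scanner, background correction and scaling are not given in the sources used here. Of the probes 24658 had a single gene symbol, 1002 several and 6081 none in the platform annotation, which gave 18255 genes after old symbols were updated through RefSeq. A gene was represented by its probe with the highest mean log2 intensity.

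Values under 1 were set to 1 and taken to log2. Group means were fitted over all 6 arrays with limma 3.58.1 in R 4.3.3, with 3 contrasts, 2-sided p-values and Benjamini-Hochberg adjustment over all probes. A gene was called below an adjusted p of 0.05, and the word passed refers to this call. The fit was tried on simulated arrays with independent normal errors. Unlike these arrays, the simulated ones had no difference of scale. A value of 65500 or more in whole-number units was called saturated. The number of arrays limits the precision, and intensities of different probes were not set against each other. The labels do not say whether replicate numbers pair the arrays, so the number entered only as an alternative. The correlation of same-numbered deviations was -0.0769 between LC53 plus LPS and LPS, 0.201 between LC53 plus LPS and resting, and 0.0581 between LPS and resting. These correlations cannot settle whether the arrays were paired. The 35 genes, the other lists, the markers and the tests were chosen with earlier results of these data known. Genes given with every array value passed in a contrast or differed by 1 or more on the log2 scale, together with HSPA8, HSP90AA1, HSP90AB1, HSF1 and HSF2, and other genes given so were chosen after their values were seen. From each other list up to 3 called genes were named, with exceptions marked in the text. The alternatives were quantile normalization, median centring, cyclic loess, an offset of 50, the brighter probes, the mean over all probes of a gene, a replicate block, a variance trend, a fit of the 4 arrays compared, and leaving out each array. Promoters were RefSeq sequences of GRCh38.p14, and FKBP4, PTGES3L, STUB1, ST13, CRYAB and HSF1 were not among those used.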

Additional observations from a re-analysis of the deposited data

How the results depend on the processing

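The number of the 32 genes called higher in LC53 plus LPS against LPS was 3, and it was 11 after quantile normalization, 5 after median centring, 10 after cyclic loess, 10 with an offset of 50, 12 among the 29 genes in the brighter probes and 13 with a variance trend. It was 0 with only the groups compared, and 0 to 6 with 1 array left out, with 6 without LPS replicate 2 and 0 without any other array. In LC53 plus LPS against resting the number called higher was 1, and in the same order of the first 6 alternatives it was 3, 2, 4, 5, 7 and 5, and 0 to 1 with 1 array left out. The number called lower there was 0, and 2, 1, 2, 1, 2 and 2 under these alternatives. In LPS against resting the number called lower was 1, and 9, 4, 8, 6, 9 and 8 under these alternatives, 0 with only the groups compared, and 0 to 2 with 1 array left out. The number called higher there was 0, and 1 after cyclic loess (DNAJA1) and 0 to 1 with 1 array left out, the call being CRYAB without LPS replicate 1. No gene was called lower in LC53 plus LPS against LPS under any alternative run. Arrays of the group outside a comparison do not enter its differences. Leaving 1 of them out gave the same counts as the fit of only the groups compared, so it is no separate test. Over all probes the calls in LC53 plus LPS against LPS were 218 higher and 616 lower, against 1650 and 2105 after quantile normalization, 668 and 1748 after median centring, 1196 and 2389 after cyclic loess, 1088 and 1264 with the offset, 1041 and 1103 of the 15870 brighter probes, and 974 and 1185 with the variance trend. In LC53 plus LPS against resting they were 557 higher and 384 lower, against 1519 and 1975 after quantile normalization, 1077 and 1363 after median centring and 1507 and 1863 after cyclic loess. In LPS against resting they were 1276 higher and 793 lower, against 2553 and 2604 after quantile normalization.

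Whether the replicate numbers pair the arrays is not known. With the number as a replicate block, 0 of the 32 genes were called higher in LC53 plus LPS against LPS, where DNAJA4, DNAJB4 and BAG3 had adjusted p of 0.0539, 0.0636 and 0.0711, and the block moved no other count of these genes. Over the 15 alternatives, 63 of 1431 values of single genes turned sign. None of these had passed as deposited or passed in the alternative, and the largest as deposited was 0.46 in size. The cause of these changes was not tested. With 2 arrays per group, signal near the floor (HSPB8, HSPA4L) and saturation (HSP90AB1) limit what these arrays show.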
